A study of Mus musculus with 2 samples.

Results

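Among the tall open chromatin regions of the mouse frontal cortex, 29 held no footprint of a bound protein in either of 2 DNase-seq libraries. They were 0.197% of the 14721 autosomal regions of that height, and nearly every other tall region held several footprints. To find them, overlapping peaks of the longer deposited peak list of each library were joined, and regions with peaks of both libraries were kept (53623, of which 52301 were autosomal). A member had a maximum height of at least 1.5 in both libraries and no base in common with any deposited footprint of either library. The members were thus selected on their heights and on the absence of footprints, and both are given as a description. The members were compared with 5886 regions that held at least 1 footprint and had heights within the members' range.

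The tissue was frontal cortex of male B6CASTF1/J mice, the F1 offspring of a B6 and a CAST parent strain, aged 14 days. The 1 group had 2 libraries, replicate 1 and replicate 2, each labelled as pooled tissue of 3 males. Both carry 1 donor number although their tissue samples differ, and their spread may thus hold technical variation alone. There was nothing to set the group against, and no p-values are given, because regions of 1 library are not replicates.

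DNase I cuts DNA that is not wrapped in nucleosomes, and open promoters and enhancers appear as peaks of cuts. A protein that sits on open DNA shields the bases under it, which leaves a short gap in the cuts called a footprint. Proteins that stay on DNA only briefly can leave little trace, and so can any protein where cuts are few. Many mammalian promoters lie in CpG islands, stretches rich in G, C and the dinucleotide CpG that are often open over several nucleosome lengths.

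Replicate 1 had 156390 footprints and replicate 2 had 202779, with a median length of 10 bp in both. A shared open region lay within 1000 bp of a start site for 59.4% of all protein-coding genes. Among marker genes it did so for 7 of 8 of excitatory neurons, 4 of 8 of interneurons, 4 of 7 of astrocytes, 3 of 8 of the oligodendrocyte lineage, 2 of 6 of microglia and 3 of 6 of vascular cells. Of liver and muscle markers it was 1 of 4 each, and of Hox genes 1 of 39. Of the lists of cortical cell type markers, the excitatory neurons alone stood above the share of all genes. Other lists stood above it too, among them 22 of 22 synaptic and neuronal genes, 18 of 18 immediate early genes and 76 of 79 cytosolic ribosomal genes. Read depths were not used here. Peak heights are the authors' signal values on an unstated scale that is treated as set per library. Heights are given per library, and means or ratios across libraries combine both scales.

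The sequences below, all on the plus strand of mm10, show what such regions look like beside footprinted DNA. In the members, capitals mark the GC box GGGCGG, the site of Sp and Klf factors, on either strand. The tallest member lay 253 bp downstream of a start site of Pi4ka, the gene of a phosphatidylinositol kinase, at chr16:17405281-17405640, of which chr16:17405307-17405606 is shown. The member upstream of Ptma, the gene of the nuclear protein prothymosin alpha, is shown whole (chr1:86525821-86526120). Jun, an immediate early transcription factor gene of a single exon, held a member in its coding sequence (chr4:95050541-95051120, of which the middle 300 bases are shown).
Pi4ka member: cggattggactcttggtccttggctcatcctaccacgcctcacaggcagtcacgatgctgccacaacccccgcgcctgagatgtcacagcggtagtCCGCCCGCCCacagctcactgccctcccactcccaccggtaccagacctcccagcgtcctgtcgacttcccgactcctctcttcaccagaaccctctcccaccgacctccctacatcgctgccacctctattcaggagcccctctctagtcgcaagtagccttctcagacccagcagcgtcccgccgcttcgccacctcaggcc
Ptma member: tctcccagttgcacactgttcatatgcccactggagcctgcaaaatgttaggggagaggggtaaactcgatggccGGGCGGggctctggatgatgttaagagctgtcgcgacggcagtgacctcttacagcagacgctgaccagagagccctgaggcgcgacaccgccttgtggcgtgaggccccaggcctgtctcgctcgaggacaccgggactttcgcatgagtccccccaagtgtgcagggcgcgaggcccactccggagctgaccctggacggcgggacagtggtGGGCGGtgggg
Jun member: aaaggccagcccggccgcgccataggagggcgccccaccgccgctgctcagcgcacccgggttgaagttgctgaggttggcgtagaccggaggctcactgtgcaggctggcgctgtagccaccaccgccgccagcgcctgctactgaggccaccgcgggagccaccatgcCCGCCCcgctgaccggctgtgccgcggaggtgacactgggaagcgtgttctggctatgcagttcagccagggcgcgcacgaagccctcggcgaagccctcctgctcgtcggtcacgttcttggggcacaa

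In the next sequences, from footprinted regions, capitals mark every base inside a footprint of either library. The taller region beside the Ptma member (chr1:86526381-86526700, of which chr1:86526391-86526690 is shown) is the open region next to the start site of the same gene, and 57% of the printed bases lay in a footprint. At the promoter of Fastkd5, a mitochondrial RNA-processing gene, a region had nearly the same mean height as the Pi4ka member (chr2:130629921-130630120, of which chr2:130630039-130630120 is shown).
Ptma taller region: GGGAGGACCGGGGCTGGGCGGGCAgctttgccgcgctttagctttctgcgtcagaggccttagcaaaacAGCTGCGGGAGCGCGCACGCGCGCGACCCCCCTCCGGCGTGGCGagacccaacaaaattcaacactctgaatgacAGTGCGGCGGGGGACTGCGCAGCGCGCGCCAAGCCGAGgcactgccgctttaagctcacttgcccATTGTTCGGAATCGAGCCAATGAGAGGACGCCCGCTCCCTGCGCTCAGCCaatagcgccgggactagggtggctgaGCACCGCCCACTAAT
Fastkd5 region: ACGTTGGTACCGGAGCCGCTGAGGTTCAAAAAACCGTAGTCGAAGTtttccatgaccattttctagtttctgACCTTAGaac

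The pair at matched height was chosen for its footprints, and its values are a description. The Pi4ka member had heights of 2.90 in replicate 1 and 2.09 in replicate 2 (mean 2.498 ± 0.572, SD, n = 2) and no footprint. The Fastkd5 region had heights of 2.29 and 2.70 and held 2 footprints in replicate 1 and 3 in replicate 2. The Pi4ka member was the taller of the pair in replicate 1 and the Fastkd5 region in replicate 2.

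Lack of footprints was tied to height across all open regions. Over all 52301 autosomal shared regions, 5.36% had no footprint in either library. Of regions with a mean height below 0.5, 28.98% had none, of those from 1 to 1.5 it was 2.13%, of those from 1.5 to 2 it was 0.628%, and of those from 2 to 2.5 it was 0.184%. No region with a mean height above 2.5 was free of footprints in both libraries. The 29 members therefore lie at the lower end of the tall regions, with heights of 1.505 to 2.90 in replicate 1 (median 1.77) and 1.501 to 2.79 in replicate 2 (median 1.76), and 24 of them had a mean height between 1.5 and 2. They were taller in replicate 1 in 13 cases and in replicate 2 in 16.

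**Figure D1:**
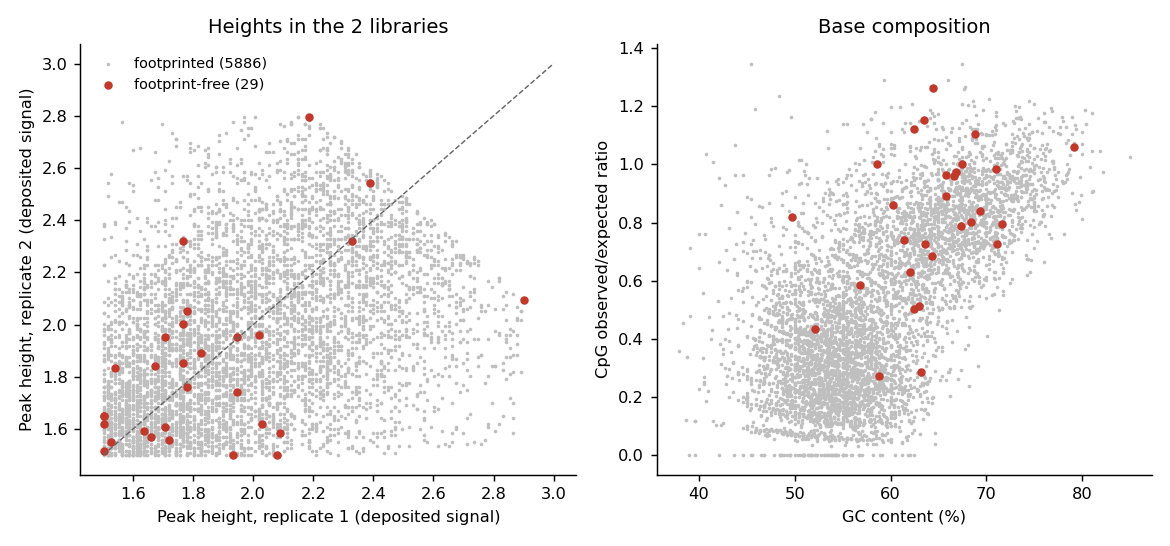
The left plot gives the peak height in replicate 1 (x axis) and replicate 2 (y axis), in the authors' signal units, of the 29 footprint-free regions (red) and the 5886 footprinted regions of the same height range (grey), with a dashed line of equal heights. The right plot gives GC content in percent against the CpG observed over expected ratio for the same regions. Most red points lie in the upper right, and 24 of the 29 (82.8%) have a GC content of at least 60%. Of the grey points 38.5% do, and of all tall regions 55.4%.

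Whether the lack of footprints in 1 library was repeated in the other was read with each library in turn. Of the 117 tall regions without a footprint in replicate 1 (0.795%), 29 had none in replicate 2 either, which is 24.8%. Among the 14604 regions with a footprint in replicate 1, the share without one in replicate 2 was 0.205%, or 0.461% when weighted to the heights of the 117. Of the 59 regions without a footprint in replicate 2 (0.401%), 49.2% had none in replicate 1, against 0.6002% of the 14662 others and 1.34% after weighting by height. Footprint-free status was thus repeated far more often than at other regions of like height, and it was not repeated at most of the regions that lacked footprints in replicate 1. Of the 88 regions free in replicate 1 alone, 46 held 3 or more footprints in replicate 2. Of the 30 free in replicate 2 alone, 7 held 3 or more in replicate 1 and 14 held 1. By number of footprints, 32 of all tall regions held 1 in both libraries together, 111 held 2, and 12706 held 6 or more.

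The members stood beside taller open regions. Within 1000 bp, 26 of the 29 had a shared region taller than themselves, against 758 of the 5886 footprinted regions (12.9%, or 13.5% weighted to the members' heights). The tallest such neighbour was 2.19 to 10.9 times as tall as the member, with a median of 4.13, and lay 40 to 800 bases away, with a median of 200. The neighbours held a median of 6 footprints in each library and never fewer than 2. This is near the number usual at such heights. Autosomal shared regions with a mean height from 5 to 7 held a median of 5 in replicate 1 and 6 in replicate 2. Those from 7 to 10 and those above 10 held a median of 6 in each library. In 16 cases the neighbour covered at least 1 annotated protein-coding start site.

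Individual pairs show the step from member to neighbour. The member in an intron of Zfp143, a zinc finger gene whose product binds many promoters, had heights of 1.95 and 1.95 (chr7:110061881-110062240). Its neighbour 180 bases away had heights of 20.6 and 21.9 and held 7 and 6 footprints. The neighbour was 10.9 times as tall as the member. The member upstream of Hnrnpul1, an RNA-binding protein gene, had heights of 1.78 and 1.76 (chr7:25755541-25755900). The tallest region beside it was 9.36 times as tall and held 7 footprints in replicate 1 and 9 in replicate 2. The smallest step was at Plpbp, the gene of a pyridoxal phosphate-binding protein, where a neighbour of heights 3.71 and 3.97 stood 2.19 times as tall as the member.

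**Figure D2:**
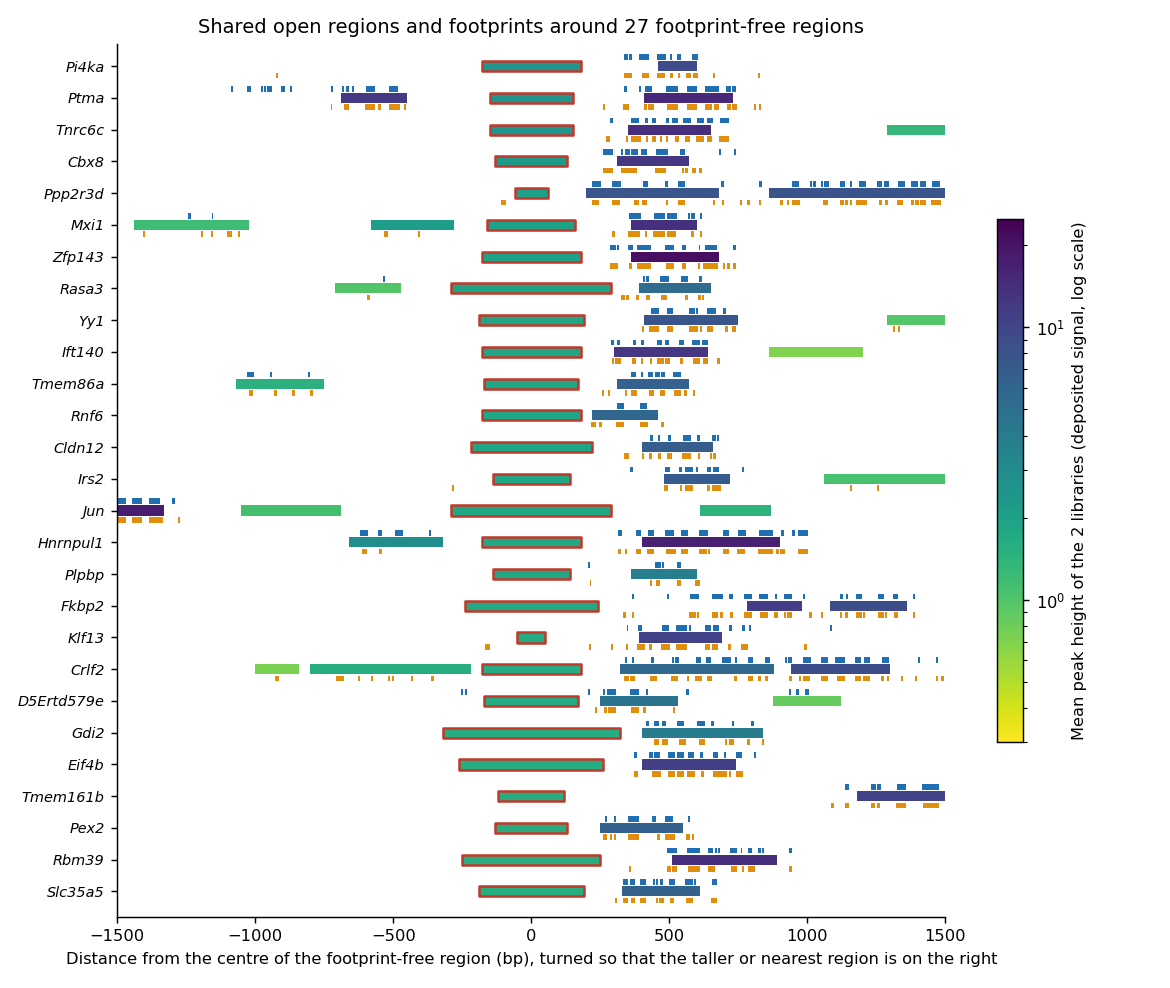
Each row is 1 of 27 footprint-free regions (outlined in red at 0) with the other shared open regions within 1500 bp, named by the nearest protein-coding gene, in order of height. Fill gives the mean height of both libraries on a log colour scale, and the small bars are footprints of replicate 1 (blue, above) and replicate 2 (orange, below); distance in bp is on the x axis, turned so that the tallest neighbour, or the nearest region where no taller one lies within 1000 bp, is on the right. Footprints crowd over the dark neighbours, the tallest of which lies at right except at Jun, where the region at right is lower and holds no footprint and the dark one is at left. No footprint touches a red outline.

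The share of footprint-free regions was larger the greater the step in height to the neighbour, once it passed 2 times. Among regions of the members' height range with no taller region within 1000 bp, 3 of 5131 were free of footprints (0.0585%). With a neighbour 1 to 2 times as tall it was 0 of 440, with one 2 to 4 times as tall 11 of 243 (4.53%), with one 4 to 8 times as tall 12 of 94 (12.8%), and with one over 8 times as tall 3 of 7 (42.9%). The last class is small.

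Since the rule used the footprints of both libraries, the same classes were read with the heights of 1 library and the footprints of the other. With heights of replicate 1, footprints of replicate 2 went from 14.4 per kb of region without a taller neighbour to 12.6, 9.02, 6.86 and 7.15 per kb in the 4 rising classes. With heights of replicate 2, footprints of replicate 1 went from 12.2 per kb to 9.82, 6.37, 6.58 and 4.34. Members included, the share of regions without a footprint in replicate 1 was 0.507% with no taller neighbour, 15.8% beside one 2 to 4 times as tall and 31.6% beside one 4 to 8 times as tall. In replicate 2 these shares were 0.234%, 5.95% and 19.8%. The members are free of footprints in both libraries by the rule and weigh on these shares: without them the shares were 0.449%, 12.2% and 20.7% in replicate 1, and 0.176%, 2.87% and 4.94% in replicate 2. With the 29 members left out, the remaining regions beside a neighbour 2 to 4 and 4 to 8 times as tall held 9.37 and 7.89 footprints per kb in replicate 2, against 14.4 without a taller one. In replicate 1 these densities were 6.65 and 7.51 per kb, against 12.2. Beside a neighbour over 8 times as tall they were 10.4 per kb in replicate 2 (8 regions) and 8.35 in replicate 1 (4 regions), so that above 2 times the density did not go down steadily with the step.

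**Figure D3:**
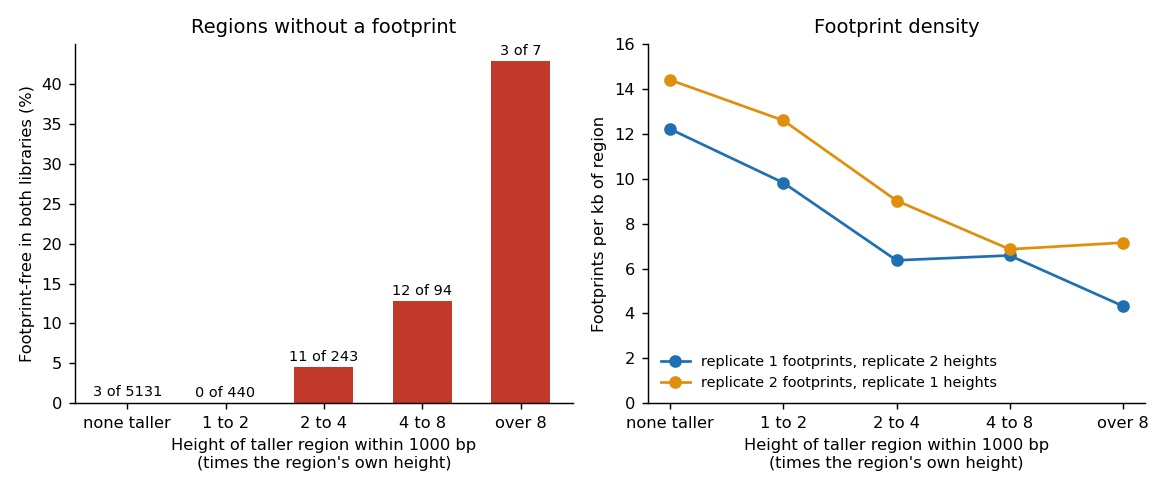
Regions of the members' height range are split by how many times taller the tallest shared region within 1000 bp was (x axis). The left bars give the percent without a footprint in either library, with counts above the bars, from 3 of 5131 to 3 of 7. The right lines give footprints per kb of region in 1 library, classed by the heights of the other. These densities are lower in the 3 classes above 2 times than in the 2 below. They include the members, which hold no footprint by the rule.

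The DNA between member and neighbour was mostly listed in the deposited cut rate track as well. This track lists bases whose rate of cuts passes a false discovery rate of 0.05. Whether a listed rate also draws on cuts in nearby bases, such as those of the neighbour, was not tested. In 25 of the 26 gaps between a member and the nearest taller region, every base was listed in both libraries, and in the other gap this held for replicate 2 alone. Of the 726 gaps beside footprinted regions, 43.8% were listed throughout in both libraries, with a longer median gap (296 against 160 bases). These sets of gaps were not matched on the step in height either. By the tallest region within 1000 bp, 440 footprinted regions but no member stood beside one 1 to 2 times as tall. A footprint counted for a gap if at least 1 of its bases lay there. The gaps beside members were not free of footprints, with at least 1 in 13 gaps in replicate 1 and in 18 in replicate 2. That gave 5.29 and 7.84 footprints per kb, compared with 1.25 and 2.43 per kb in the unmatched, longer gaps beside footprinted regions. The footprint nearest to the member lay on the side of the tallest neighbour in 26 of 26 cases in replicate 1 and in 23 of 26 in replicate 2. Member and nearest taller region were thus joined by listed bases in both libraries in 25 of 26 cases. That the footprints between them lay outside the member follows from the rule.

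The members themselves were as clearly cut as footprinted regions of their height. The smallest false discovery rate in a member had a median -log10 value of 8.88 in replicate 1 and 9.82 in replicate 2, compared with 8.54 and 9.09 in the height-weighted comparison. The range over members was 3.14 to 24.7 in replicate 1 and 3.49 to 24.3 in replicate 2. In 25 of the 29, every base was listed below 0.05 in both libraries, and in 12 every base was below 0.001 in both. These 2 counts are not given for the footprinted regions. The median share of a member's bases below 0.001 was 100% in both libraries. In the height-weighted comparison it was 95.6% in replicate 1 and 100% in replicate 2. Of all footprints, 98.5% in replicate 1 and 98.0% in replicate 2 lay wholly in bases listed below 0.05.

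**Figure D4:**
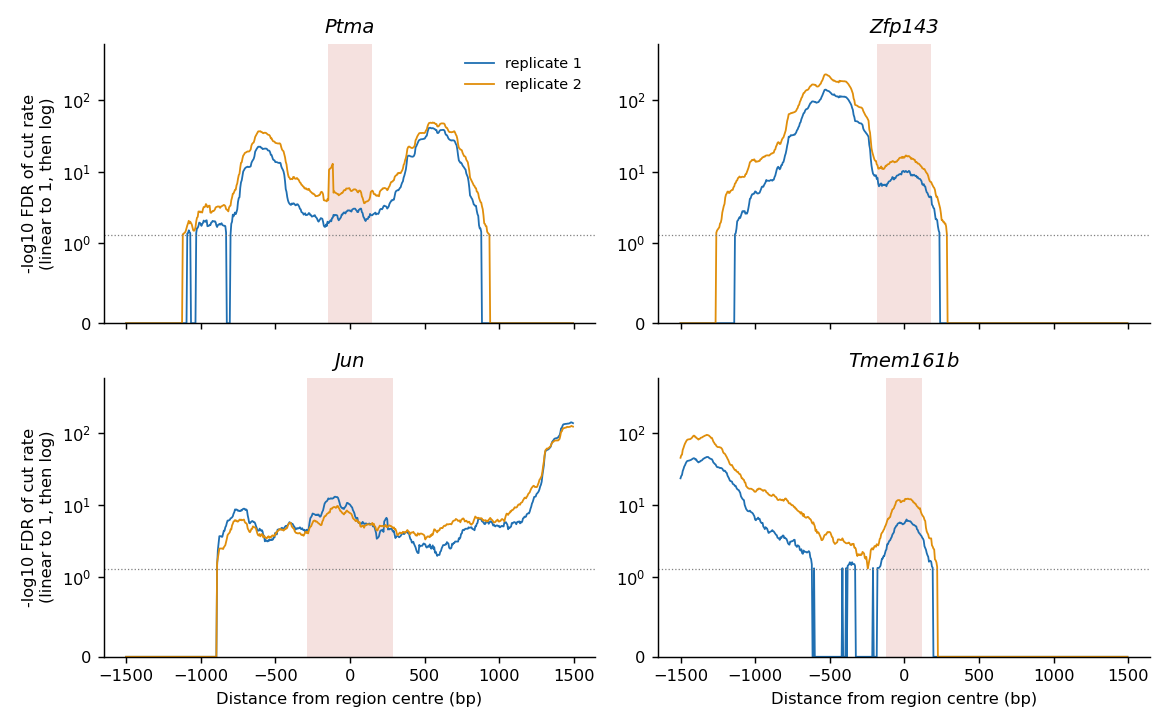
The -log10 false discovery rate of the cut rate (y axis, linear to 1 and log above, 0 where a base is not listed) is drawn for replicate 1 (blue) and replicate 2 (orange) against distance in bp from the centre of 4 footprint-free regions (shaded), in genome order. At Ptma and Zfp143 the curve stays above the dotted line of 0.05 from the member to the taller neighbour, at Jun it does so toward the promoter on the right, and at Tmem161b it does so toward the taller region on the left in replicate 2 but not in replicate 1.

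In 3 members there was no taller region within 1000 bp, and 2 of these are described here. For Jun the next taller region was the promoter of the gene itself, 1040 bases away, with heights of 18.5 and 16.4, 9.74 times the member's. The Jun member was among the widest (580 bp), all of it coding sequence, with heights of 2.08 and 1.501. A lower region on its other side, with heights of 1.64 and 1.24, also held no footprint in either library. Another lower region, between the member and the promoter, had a mean height of 1.13 and held none either. The member 98090 bp from Tmem161b (chr13:84349361-84349600, heights 1.505 and 1.65) had a region 6.57 times as tall at 1060 bases. With the distance set to 2000 bp, 28 of the 29 had a taller region.

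Most members lay at promoters. Of the 29, 25 (86.2%) were within 1000 bp of a start site of a protein-coding gene, compared with 41.9% of the comparison after weighting by height. With a window of 500 bp the difference of 44.3 percentage points was 28.0. The start site itself lay inside 8 members (27.6%), compared with 31.4% of the footprinted regions. By their centres, 9 of the promoter members lay upstream of the nearest start site and 16 downstream. Position next to a tall region and position at a promoter overlapped: among regions with a taller neighbour, 25 of 585 at promoters were footprint-free (4.27%) and 1 of 199 elsewhere (0.503%). Without a taller neighbour it was 0 of 2059 at promoters and 3 of 3072 elsewhere. A promoter position without a taller region within 1000 bp thus went with no member at all. Among regions with a taller neighbour, 96.2% of the members and 73.9% of the footprinted regions were at promoters.

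The members were rich in G, C and CpG, as CpG islands are. Their median GC content was 64.3% (49.7 to 79.1), compared with 56.8% in the height-weighted comparison, and they held a median of 30 CpGs compared with 9. The CpG observed over expected ratio, which is near 1 where CpGs have not been lost, had a median of 0.820 compared with 0.437. It reached 0.6 in 23 of 29 members (79.3%), in 35.9% of the height-weighted comparison and in 62.4% of all tall regions. Among footprinted regions with a taller neighbour it did so in 60.8%. Against footprinted regions that also had a taller neighbour, the differences were smaller: in the 26 members of that kind GC content was 64.4% against 60.3% and the CpG ratio 0.840 against 0.679. Promoter regions of the members' height range had a GC content near that of the members. Its median was 63% in the 585 with a taller neighbour, 25 of them members. In the 2059 without one, of which 0 were members, it was 64.2%. High GC content was thus not particular to the members among promoter regions. The members were wider, at a median of 360 bp against 260 bp, but with each library alone the difference of 100 bp fell to 20 and 40 bp. Soft-masked repeat sequence took a median of 4% of a member and 4.52% of a comparison region, a difference that changed sign between settings. A dinucleotide repeat of at least 12 bp was found in 1 member (3.45%), at Rasa3, where it ran for 34 bp. The share among the footprinted regions was close to this, at 2.82%.

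Extremes among the members illustrate the range. The highest GC content was that of the D5Ertd579e member (79.1%, chr5:36695521-36695860, heights 1.72 and 1.56), with 55 CpGs. The lowest was that of the Hnrnpul1 member, 49.7%. The widest member, 640 bp, covered a start site of Gdi2, a GDP dissociation inhibitor gene of Rab proteins (chr13:3538201-3538840). The narrowest, 100 bp, lay 746 bp upstream of Klf13, a Krüppel-like factor gene (chr7:63939661-63939760). At 12.7%, the Fkbp2 member held the most soft-masked sequence (chr19:6979020-6979500).

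The letters of the members were searched on both strands for 23 fixed consensus sequences. The GC box GGGCGG was in 22 of the 29 members (75.9%), in 35.9% of the height-weighted comparison and in 54.1% of all tall regions. Per kb the difference was smaller, at 3.40 matches compared with 2.51, and in footprinted regions with a taller neighbour it was 3.41. The box CCAAT, bound by NF-Y, was in 12 members (41.4%), compared with 27.9% of the comparison and 38.1% of all tall regions. AGGTCA, the core site of many nuclear receptors, was in 7 members (24.1%), compared with 9.88% and 9.14%. The GC box was in 51.6%, CCAAT in 31.3% and AGGTCA in 11.3% of footprinted regions with a taller neighbour. Shares per region were not matched for width, and the members were wider. Per kb, CCAAT had 1.56 matches in members compared with 1.18 in the height-weighted comparison, and AGGTCA 0.875 compared with 0.349. The E-box CAGCTG, a site of basic helix-loop-helix factors, was in no member, in 26.0% of the comparison and in 19.99% of all tall regions. The AP-1 site TGANTCA was in no member, in 8.61% of the comparison and in 6.15% of all tall regions. The CTCF consensus was also in no member, in 10.05% of the comparison and in 5.38% of all tall regions. In footprinted regions with a taller neighbour, CAGCTG was in 22.2%, the AP-1 site in 6.07% and the CTCF consensus in 4.22%. At such shares only a few of 29 regions would hold an AP-1 or CTCF match. These matches describe letters only; some overlap each other in GC-rich DNA.

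The members lay at genes of varied function. Among genes for transcription and chromatin factors, the member upstream of Cbx8, which encodes a Polycomb subunit, had heights of 2.33 and 2.32 (mean 2.32 ± 0.00711, SD, n = 2) at chr11:119041421-119041680. Its neighbour had heights of 12.1 and 12.96 and held 6 and 5 footprints. At Mxi1, a partner of MAX that opposes Myc, the member had heights of 2.02 and 1.96 (chr19:53313701-53314020). Mxi1 had the tallest neighbour at 6.78 times its height, 200 bases away, and a nearer one of almost its own height. The Yy1 member, 433 bp upstream of the gene of a zinc finger factor, had heights of 1.83 and 1.89 and the highest CpG ratio of all, 1.26 (chr12:108792161-108792540).

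At genes of RNA biology, the Tnrc6c member held a start site of this microRNA silencing factor and had heights of 2.39 and 2.54 (mean 2.47 ± 0.110, SD, n = 2; chr11:117654001-117654300). It had no GC box and a GC content of 71%, and its neighbour was 5.80 times as tall with 9 footprints in each library. The Eif4b member, downstream of the start site of a translation initiation factor gene, had heights of 1.66 and 1.57. The member at Rbm39, the gene of a splicing factor, had heights of 1.505 and 1.62 beside a region 8.77 times as tall. Tnrc6c thus stood near the top of the set in height and Rbm39 near its lower limit.

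At genes of signalling proteins, the Ppp2r3d member, in coding sequence of a phosphatase 2A subunit gene, had heights of 1.77 and 2.32 (mean 2.04 ± 0.390, SD, n = 2; chr9:124422621-124422740). It was 120 bp wide, and 119 of these bases were coding. The Rasa3 member, at the gene of a Ras GTPase-activating protein, had heights of 1.77 and 2.00 and lay beside a region 2.80 times as tall (chr8:13676861-13677440). The Irs2 member lay farther out than any other at a promoter, 983 bp upstream of the insulin receptor substrate gene, and held 4 GC boxes. Libraries differed most, in proportion, at Pi4ka, Jun and Tmem86a, where the height in replicate 2 was 0.721, 0.722 and 0.758 times that in replicate 1.

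Some members lay near start sites of more than 1 gene. In all, 28 protein-coding genes (0.128% of 21924) had a member within 1000 bp of a start site, because the Pi4ka member also lay near Snap29, the Ift140 member near Cramp1l and the Slc35a5 member near Atg3. Of 424 zinc finger genes with Zfp, Zscan or Zkscan symbols, 1 had such a member (Zfp143). Of 52 genes of RNA splicing with Srsf, Hnrnp, Snrp or Sf3 symbols, 1 had one (Hnrnpul1). These lists by symbol leave out Yy1 and Rbm39, described above, which also had a member. None of 18 immediate early genes (the Jun member lies 1102 bp from the start site), 22 synaptic and neuronal genes, 79 cytosolic ribosomal genes or 106 genes of oxidative phosphorylation had one at the promoter. At the background share of 0.128% each of these lists would hold fewer than 1 gene, so that the counts of 0 set no list apart.

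At the height limit the choice was a matter of small steps. The members with the lowest height in either library included those at Fkbp2 (1.93 and 1.501) and Jun (2.08 and 1.501). Just outside stood footprint-free regions at Thap2 (1.47 and 1.501), Nsd3 (1.47 and 1.60) and H2afv (1.48 and 1.47).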

How the data were processed

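DNase-seq peaks, footprints and cut rates of 2 libraries were used as deposited in assembly mm10, per library and not pooled. Peak heights are signal values that the authors deposited, on an unstated scale. Footprints carry a constant 0.01 in their p-value column, and the deposited track of cut rates holds false discovery rates (treated as p-values or q-values) for bases below 0.05. Per the deposited file descriptions footprints were made from alignments and that track. Callers are not given in the sources used here. Total read counts were not used, so no counting interval is given; the gap between 2 libraries is the only error.

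Regions were joined at 1 bp of overlap and annotated with GENCODE M21 and the mm10 sequence (Python 3.11.15, pandas 2.3.3, numpy 2.4.6, pysam 0.24.0). Comparison values were weighted to the members' bins of mean height (edges 1.5, 2, 2.5 and 3). Any effect of the parents' sequence variants on the heights was not tested. Scripts were tested on simulated data. The rule for named regions took the 10 highest, the 5 highest of each class, extremes of width and composition, those at the height limit and footprinted regions nearest in height; others were chosen after their values were seen. Not every region under the rule is named, and 2 members are not reported here one by one. Members and lists were chosen with earlier results of these data known, and the neighbour comparison was added after seeing the data.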

Additional observations from a re-analysis of the deposited data

How the results depend on the processing

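The number of members was 25 to 30 under other overlaps, peak lists and chromosomes, 210 with a height minimum of 1, 4 with a minimum of 2, and 139 to 222 with either library alone. The excess at promoters (44.3 percentage points) was 42.1 with footprints within 50 bp counted, 57.8 and 46.8 with minimums of 1 and 2, 32.7 to 34.6 with 1 library left out, 41.7 unweighted, 37.7 weighted by height and width, 28.0 and 42.5 with windows of 500 and 2000 bp and 46.3 with the start sites of all genes. The excess in width (100 bp) was 61 bp with the shorter peak list, 40 bp with a minimum of 2 or weighting by width, and 20 to 40 bp with 1 library left out. The excess in GC content (7.57 points) was 7.32 with footprints placed by their middle base, 6.70 with those within 50 bp, 8.36 and 6.41 with minimums of 1 and 2, 5.24 to 5.33 with 1 library left out, 7.23 unweighted, 5.76 weighted by width and 7.67 against regions with footprints in both libraries. The soft-masked difference (-0.524 points) reversed to 0.521 with the shorter list, 0.455 with footprints within 50 bp, 0.572 and 3.28 with minimums of 1 and 2 and 0.0360 unweighted; it was -1.22 weighted by width and -1.15 to -0.625 with 1 library left out. All 29 members, including 3 without a taller neighbour, were set against footprinted regions with a taller neighbour, a comparison added after seeing the data. The differences were 13.1 points at promoters, 40 bp, 4.04 points of GC and -2.18 points of soft-masked sequence. With like sets on both sides, unweighted, 96.2% of the 26 members with a taller neighbour were at promoters, against 73.9%. The excess with a taller region within 1000 bp (76.2 points), also added, was 87.9 with a minimum of 2 and 56.8 to 64.5 with 1 library left out. The causes were not tested. The excess of regions without a footprint in the other library, 36.1 points, was 24.2 to 39.1 under its alternatives; it has no value with 1 library left out or against regions with footprints in both. No paired analysis was possible because there was 1 group. With 2 libraries and no read counts, no interval could be set on a lack of footprints.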
